A study of Sus scrofa with 8 samples.

Results

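Enzymes that build and break down steroids, and enzymes that oxidise, reduce or conjugate drugs and other foreign compounds, were followed in islets from newborn pigs. They were picked by symbol from the array's gene annotation: cytochrome P450 (CYP), hydroxysteroid dehydrogenase (HSD), UDP-glucuronosyltransferase (UGT), sulfotransferase (SULT), aldehyde dehydrogenase (ALDH), aldo-keto reductase (AKR), flavin monooxygenase (FMO), alcohol dehydrogenase (ADH) and carboxylesterase (CES) genes, with POR, STAR, FDX1, EPHX1 and EPHX2. This gave 70 of the 6765 genes that the annotation names by a single symbol, measured by 100 probe sets, of which 28 genes were cytochromes P450 and 42 were other enzymes or carriers. Each gene was followed on the probe set with its highest mean log2 intensity. A gene was tested when that probe set reached the 20th percentile of its array at least once. The test covered 67 of the 70 genes. The followed probe sets of SULT1E1, CYP7A1 and CYP2C32 stayed below that percentile on all 8 arrays, with highest intensities of 22.5, 4.71 and 14.5. A second CYP2C32 probe set, of lower mean, reached it on 1 array, with a highest intensity of 31.2.

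The islets came from male Duroc/Large white cross pigs of 3 days (4 pigs) or 7 days (4 pigs) of age, and no other treatment or genotype separated the groups. The pancreas was digested with collagenase. Both groups then spent 7 days in culture, in Ham's F10 medium with 10 mmol/l glucose, 50 µmol/l isobutylmethylxanthine (which blocks the breakdown of cyclic AMP) and 10 mmol/l nicotinamide. RNA from each pig was hybridised to 1 Affymetrix porcine array, and the deposited values are linear intensities with trimmed means of 500.095 to 500.101 on every array. The number of arrays, and not a read depth, limits the precision. Correlation of log2 values over all probe sets was 0.944 to 0.955 between arrays of one age and 0.936 to 0.943 between ages, and no array stood apart.

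Cytochromes P450 are haem enzymes that insert oxygen into lipophilic substrates. Microsomal P450s draw electrons from POR and mitochondrial P450s draw them from FDX1. In the adrenal and gonad, STAR brings cholesterol into mitochondria and CYP11A1 makes pregnenolone from it, and in the liver other P450s clear drugs and make bile acids. Islet cells are known less for making steroids than for converting and answering them, as when HSD11B1 regenerates active glucocorticoid inside the cell.

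Of the 67 tested genes, 2 were higher in islets from 7-day-old pigs (CYP2J34 and HSD17B8) and 5 were lower (HSD11B1, ALDH1A1, ALDH2, ALDH3A2 and UGT2B31) at an adjusted p under 0.05 in limma. These are 2.99% and 7.46% of the tested members. Over all 6540 tested genes 5.03% were higher and 7.16% were lower, so the share of these enzymes that was called stood near or below that of the array as a whole. Of the 46 members at or above the 20th percentile on all 8 arrays, 4.35% were higher and 10.9% lower. The shares for all 5757 such genes were 5.52% and 7.73%. In this brighter set the ages did not overlap for 21.7% of the members and 26.9% of all genes. Over all tested members the 2 age groups did not overlap for 10, or 14.9%, against 24.7% of all genes. Those 10 were the 7 called genes together with ADH5, HSD17B10 and CYP39A1. The median log2 difference, 7-day-old minus 3-day-old, was 0.02 over the members and -0.02 over all genes, with 34 positive and 33 negative values. At an unadjusted p under 0.05, 15 of the 67 members passed.

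**Figure D1:**
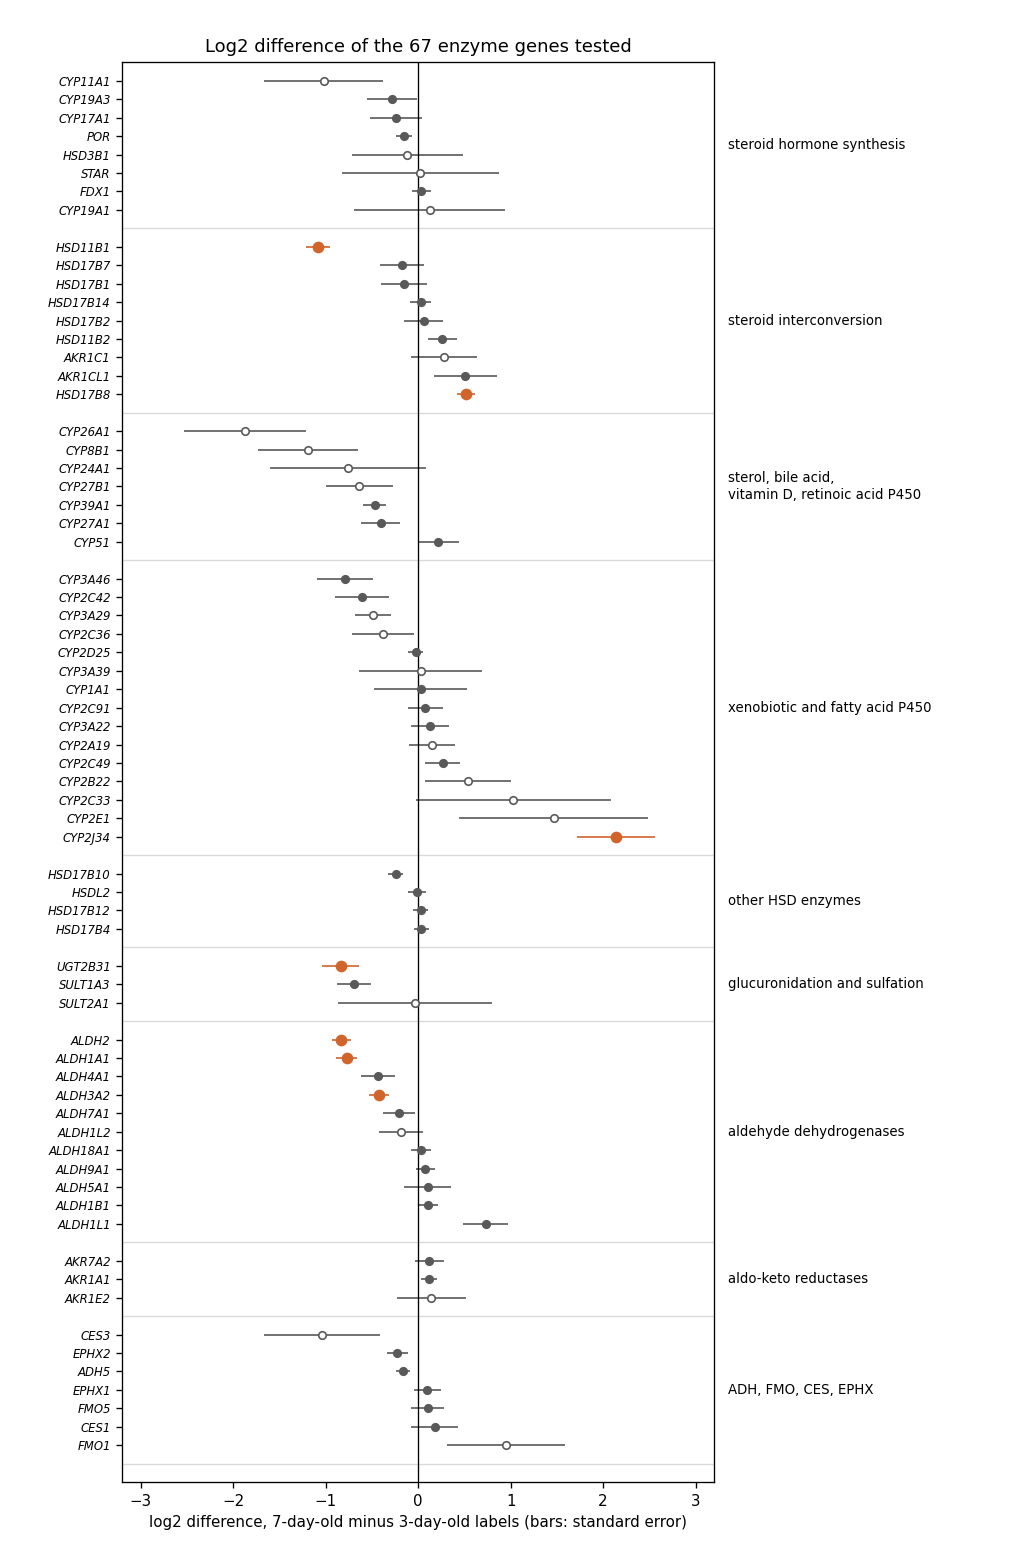
Log2 difference (7-day-old minus 3-day-old) of the 67 tested enzyme genes, arranged by role, with bars for the standard error. Orange points passed the adjusted threshold, grey filled points did not but were at or above the 20th percentile on all 8 arrays, and open points reached it on fewer arrays. The 7 orange points run from -1.08 (HSD11B1) to 2.14 (CYP2J34), while the remaining points spread to both sides of 0, with the longest bars on the open points.

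All directions follow the age in the deposited sample labels. Of the genes with a call here that are members or partners, the study's own gene tables list HSD11B1 and TTR, a retinoid carrier described with ALDH1A1, and both have the opposite direction there: HSD11B1 as higher and TTR as lower at 7 days. The study's flow cytometry, which counts cells by surface proteins, found more leukocytes at 7 days. On these arrays TYROBP was lower, the only 1 of 15 macrophage and leukocyte marker genes that was called. Of the 15, 12 had negative and 3 had positive log2 differences, and 6 had an unadjusted p under 0.05 in limma. Their median log2 difference was -0.75, against -0.02 over all genes. The comparison with flow cytometry sets RNA beside protein, and CD4 and PTPRC were at or above the 20th percentile on at most 2 arrays. For HSD11B1 and TTR the differences in the study's tables are of nearly the same size as here, with the sign turned. As both come from the same arrays, the deposited labels and the study's tables cannot both hold for these genes. Which of them is exchanged could not be settled from these sources. If the array labels were exchanged, the sign of each difference given here would turn, while its size and its p would stay. HSD11B1 was also picked by the study from these arrays, so its difference here is not independent evidence.

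**Figure D2:**
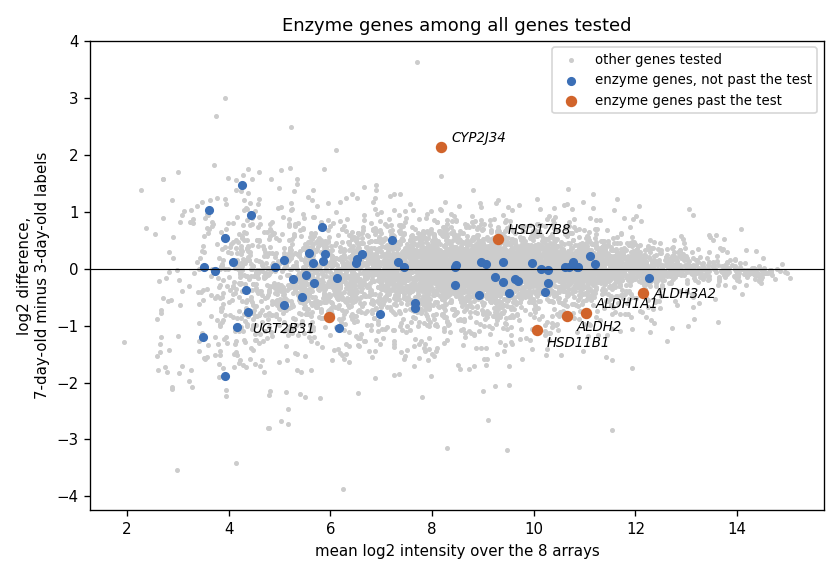
Mean log2 intensity over the 8 arrays (horizontal) against the log2 difference between ages (vertical) for all 6540 tested genes in the background, with the 67 enzyme genes drawn over them and the 7 called ones named. The enzyme genes scatter across the whole cloud, and CYP2J34 lies at its upper edge with a log2 difference of 2.14.

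Markers of the cell types in the islet preparations differed between the deposited age labels on the same arrays. For comparison, 5.03% of all tested genes were higher at 7 days and 7.16% were lower. Of 14 fibroblast and stellate cell markers tested, 6 were lower at 7 days and none was higher, and their summed intensity was 59455 to 78133 at 3 days against 44268 to 50125 at 7 days. Of 13 endothelial markers 6 were lower, with sums of 3690 to 4048 against 2367 to 2688. Of 14 endocrine markers 6 were higher, with sums of 147173 to 183261 against 171573 to 210728, which overlap. The study's gene tables run the other way for these cell types. They list the endothelial markers PECAM1, CDH5, THBD and CD93 and the fibroblast marker DCN as higher at 7 days, and the endocrine marker NEUROD1 as lower. The study's immunostaining found significantly smaller shares of glucagon and pancreatic polypeptide cells at 7 days than at 3 days. Its share of insulin cells did not differ significantly. Such staining counts cells by protein, while the sums here are of RNA. The directions of the marker differences thus also depend on which labels are right. Of the duct markers 2 of 9 were lower (sums of 57062 to 63440 against 53080 to 56197), as were 1 of 8 acinar markers (42516 to 54185 against 31382 to 52524) and 1 of 15 macrophage and leukocyte markers (1034 to 2612 against 808 to 1148). In the last list PTPRC, CD4 and CD79B were at or above the 20th percentile on at most 2 arrays. Among 11 tested liver-type and adrenal markers none passed (sums of 8448 to 12253 against 4422 to 11288), and STAR and CYP11A1, which that list shares with the members, were at or above the 20th percentile on 1 array each. In RNA from whole preparations, fewer cells of a type and less RNA per cell cannot be told apart. The part these markers play in the enzyme results was not tested.

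The enzyme that regenerates glucocorticoid had the lowest adjusted p of the members in limma (0.0061), nearly level with ALDH2 (0.00622). HSD11B1 converts cortisone, which does not bind the glucocorticoid receptor, into active cortisol, and it is found in liver, fat, stromal cells and islets. Its intensities were 1492, 1521, 1683 and 1556 in the 4 islet samples from 3-day-old pigs and 765, 675, 627 and 916 in those from 7-day-old pigs. The lowest 3-day-old value was well above the highest 7-day-old value. The mean was 1563 ± 84.1 at 3 days and 746 ± 127 at 7 days (SD, n = 4 each), a level 2.12-fold lower at 7 days (log2 difference -1.08, SE 0.13, adjusted p = 0.0061). The difference passed the threshold with each of the 8 arrays left out in turn, with a highest adjusted p of 0.0231. Marker sums of fibroblast and stellate, endothelial and duct cells were also lower on the same 7-day-old arrays. Any link of these sums to HSD11B1 was not tested.

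HSD11B2, which carries out the reverse reaction and inactivates cortisol, was not called. Its intensities were 76.5, 79.8, 91.6 and 117 at 3 days and 115, 96.5, 121 and 100 at 7 days, and the ages overlapped (log2 difference 0.26, 95% interval -0.10 to 0.62, adjusted p = 0.328). NR3C1, the glucocorticoid receptor, gave 390, 314, 185 and 340 against 425, 311, 397 and 335, also overlapping (0.30, adjusted p = 0.468). Of these 3 glucocorticoid genes, HSD11B1 alone passed the test. Whether its difference exceeded that of the other genes was not tested.

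The 17β-hydroxysteroid dehydrogenases interconvert active and weak estrogens and androgens, and several of them also work on fatty acids. HSD17B8, which oxidises estradiol and takes part in mitochondrial fatty acid synthesis, was higher at 7 days. It measured 479, 522, 518 and 592 at 3 days and 784, 700, 790 and 744 at 7 days, without overlap. The mean rose from 528 ± 46.7 to 755 ± 41.7 (SD, n = 4 each), or 1.43-fold (log2 difference 0.52, SE 0.09, adjusted p = 0.0173). It missed the threshold without the 3-day-old replicate 2 (0.051), the 3-day-old replicate 3 (0.0521) or the 7-day-old replicate 1 (0.0524).

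The other members of that family gave no call. HSD17B10, a mitochondrial enzyme of isoleucine breakdown, measured 1340, 1318, 1376 and 1380 against 1218, 1046, 1112 and 1211, which did not overlap, yet its log2 difference of -0.24 had an adjusted p of 0.106. It passed only by the methods' own test, at 0.0485. HSD17B4, the peroxisomal multifunctional enzyme of fatty acid oxidation, ranged from 1796 to 1954 at 3 days and from 1804 to 2037 at 7 days (log2 difference 0.04, 95% interval -0.15 to 0.22). HSD17B12, which elongates fatty acids, and HSD17B14 had log2 differences of 0.03 each and intervals of -0.17 to 0.22 and -0.24 to 0.29. HSD17B7, which acts in cholesterol synthesis and on estrone, spread from 583 to 1084 at 3 days and from 626 to 1056 at 7 days (-0.17, adjusted p = 0.688). In all, 1 of 9 steroid-interconverting members was higher and 1 was lower, and none of 4 other HSD members passed. Over all 6540 tested genes 5.03% were higher and 7.16% were lower. Whether these small counts differ from those shares was not tested.

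**Figure D3:**
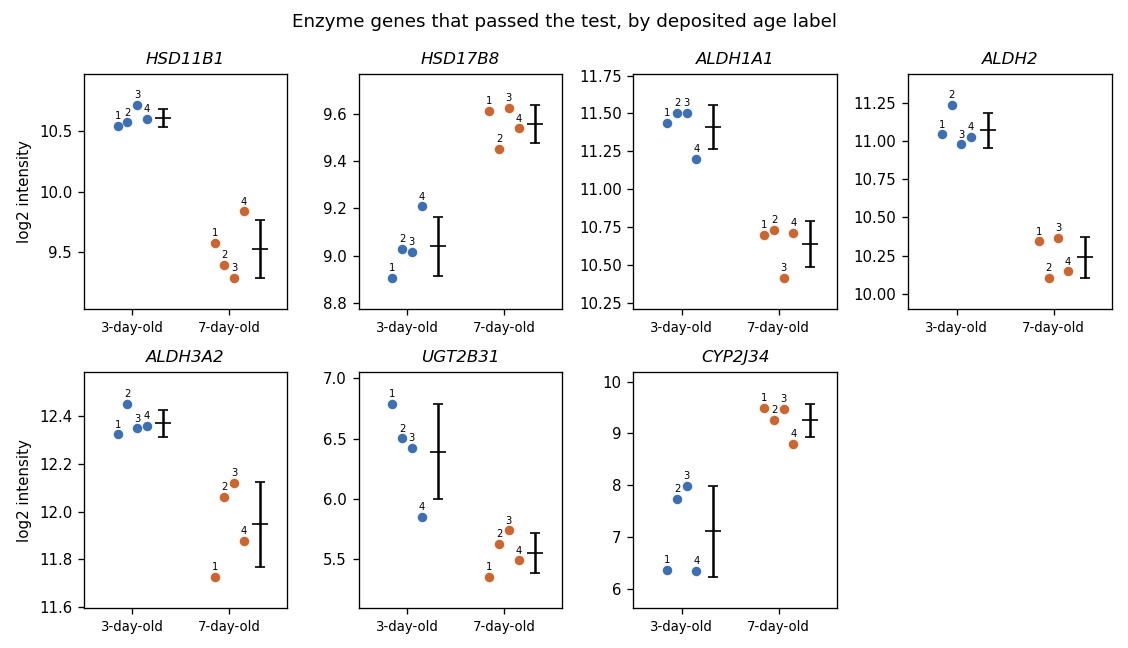
Log2 intensity on each array of the 7 enzyme genes that passed the test, by age, with the 4 pigs of each age as points numbered by replicate, a black bar for the mean and SD of the log2 values, and a vertical scale of its own in each panel. In every panel the points of the 2 ages are apart, as for HSD11B1 (intensities of 627 to 916 at 7 days and 1492 to 1683 at 3 days) and CYP2J34 (446 to 718 at 7 days and 81.4 to 255 at 3 days).

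The route from cholesterol to new steroid hormone gave narrow intervals for its electron carriers and low signal for its first steps. FDX1, the ferredoxin of mitochondrial P450s, measured 1513, 1629, 1587 and 1799 at 3 days and 1721, 1600, 1876 and 1498 at 7 days. The ages overlapped and the log2 difference was 0.03 (95% interval -0.20 to 0.27). POR, the reductase of microsomal P450s, measured 664, 606, 584 and 692 against 566, 540, 565 and 616 (-0.15, -0.36 to 0.06). Both intervals lie within a 1.5-fold change in either direction.

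CYP11A1, the side-chain cleavage enzyme, was at or above the 20th percentile on 1 array of 8, with intensities of 19 to 39.2 at 3 days and 3.22 to 30.2 at 7 days. STAR was also above it on 1 array (4.66 to 26.9 and 4.8 to 29.7). CYP17A1, which leads to androgens and cortisol, was above it on all 8 arrays at 39 to 74.3 and 33.3 to 71.6. HSD3B1 reached it on 6 arrays, between 20.4 and 93.4 at 3 days and between 22.2 and 87.1 at 7 days. None of these 4 genes was called, and their 95% intervals were wide, as for CYP11A1 (-2.53 to 0.48).

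The pig has several aromatase genes, which make estrogen from androgen. CYP19A3 measured 236, 496, 429 and 439 at 3 days and 434, 257, 282 and 319 at 7 days on its brightest probe set (-0.28, adjusted p = 0.542). The 7 other probe sets annotated to CYP19A3 peaked at 60.5 at most, so the signal of that gene rests on 1 probe set. CYP19A1 was at or above the 20th percentile on 2 arrays. Among the 8 members of steroid hormone synthesis, none passed in either direction, where 5.03% of all tested genes were higher and 7.16% lower. The median log2 difference of the 8 was -0.14.

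Aldehyde dehydrogenases held 3 of the 5 members that were lower at 7 days, out of 11 tested. That is 27.3% of the family, against 7.16% of all 6540 tested genes. Whether lower calls gather in this family was not tested, and the call of ALDH3A2 was not stable. ALDH1A1 oxidises retinal to retinoic acid and is known as a marker of progenitor cells in several tissues. It measured 2774, 2908, 2904 and 2350 at 3 days and 1662, 1699, 1362 and 1679 at 7 days, without overlap. The mean was 1.71-fold lower at 7 days (log2 difference -0.77, SE 0.11, adjusted p = 0.0097). Its second probe set gave the same direction (-0.80, adjusted p = 0.00672), from 807 to 932 at 3 days to 421 to 524 at 7 days.

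ALDH2 is the mitochondrial enzyme that removes acetaldehyde and lipid aldehydes. Its intensities were 2110, 2412, 2015 and 2085 at 3 days and 1299, 1099, 1320 and 1134 at 7 days, again without overlap. This was a 1.78-fold lower level at 7 days (-0.83, SE 0.10, adjusted p = 0.00622). Both ALDH1A1 and ALDH2 passed with any single array left out, with highest adjusted p-values of 0.0332 and 0.0228.

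ALDH3A2 oxidises long-chain fatty aldehydes in the endoplasmic reticulum. It measured 5123, 5604, 5213 and 5254 against 3387, 4272, 4452 and 3763 (-0.42, SE 0.11, adjusted p = 0.0458), and its second probe set did not pass (-0.51, adjusted p = 0.115). The call was lost when any array other than the 7-day-old replicate 3 was left out (adjusted p up to 0.11). It was also lost with no filter on low intensities (0.0582) and after quantile normalization (0.0575).

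The 8 other aldehyde dehydrogenases gave no call. ALDH9A1, which acts on aminoaldehydes on the way to GABA and carnitine, measured 2035 to 2499 and 2257 to 2752 (0.08, 95% interval -0.17 to 0.32). ALDH18A1, which starts proline synthesis, and ALDH1B1, a mitochondrial relative of ALDH2, had intervals of -0.22 to 0.29 and -0.13 to 0.35. The folate enzyme ALDH1L1 had a positive difference, with 33.8, 47.1, 60.7 and 40.3 at 3 days and 99.6, 85.1, 54 and 64.4 at 7 days (0.73, adjusted p = 0.103). A second ALDH1L1 probe set, at or above the 20th percentile on 2 arrays, gave the opposite sign (-0.50, adjusted p = 0.715). ALDH4A1, of proline breakdown, gave -0.43 (adjusted p = 0.171) with 3-day-old values of 1125, 674, 717 and 978 against 646, 637, 703 and 553. Its second probe set, dimmer but above that percentile on all 8 arrays, also turned the sign (0.15, adjusted p = 0.783). On the brightest probe sets, differences within the family thus lay on both sides of 0, with 5 positive and 6 negative.

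Retinoid genes beside ALDH1A1 were read from a list of transport, conversion and response genes, of which 14 were tested. Of these 2 were higher and 1 was lower (median log2 difference 0.05), where 5.03% and 7.16% of all tested genes were. RBP2, a cellular retinol-binding protein, measured 9.83, 5.18, 6 and 2.76 at 3 days and 45.6, 40.4, 36.3 and 51 at 7 days (log2 difference 2.99, adjusted p = 0.00594). Its 3-day-old values were all below the 20th percentile of their arrays, so the size of that difference rests on signal near background. TTR, the blood carrier of retinol-binding protein and a gene that islet alpha cells express strongly, measured 5870, 4459, 4491 and 10331 against 11331, 12803, 12583 and 12131 (1.05, adjusted p = 0.0458).

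RARRES1, a gene induced by retinoic acid, fell from 857, 921, 603 and 611 to 321, 371, 328 and 462 (means of 748 and 371, adjusted p = 0.0201). CYP26A1, the P450 that degrades retinoic acid, measured 29.6, 34.1, 24.1 and 29.6 against 27.6, 6.91, 8.88 and 2.33 and was at or above the 20th percentile on 1 array. Its log2 difference of -1.88 was the lowest of any member but had an adjusted p of 0.114, and it passed only without the 7-day-old replicate 1 (0.0356). TTR was also among the genes the study picked from these arrays, and its tables list TTR as lower at 7 days, the opposite of the direction by the deposited labels. It passed in 1 of the 8 fits that left out an array, without the 3-day-old replicate 4 (0.00816), and its adjusted p reached 0.107 in the others.

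Among P450s of drugs and fatty acids, 1 of 15 tested members passed. That is 6.67% higher and none lower, against 5.03% higher and 7.16% lower over all tested genes. CYP2J34 belongs to a family of epoxygenases that turn arachidonic acid into epoxyeicosatrienoic acids, and in other mammals the family is expressed in islets. It measured 82.5, 214, 255 and 81.4 at 3 days and 718, 611, 711 and 446 at 7 days. The 3-day-old pigs differed widely among themselves, but the highest of them stayed below the lowest 7-day-old pig. The mean was 158 ± 89.6 at 3 days and 621 ± 127 at 7 days (SD, n = 4 each), a 4.41-fold higher geometric mean (log2 difference 2.14, SE 0.42, adjusted p = 0.0217).

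No other gene among the 5757 that were at or above the 20th percentile on all 8 arrays had a larger positive log2 difference than CYP2J34, while negative differences among them reached -3.19. With the array labels exchanged, CYP2J34 would instead have the largest fall among these genes and would not have the largest rise. Its call was lost without the 7-day-old replicate 1 (adjusted p = 0.0604), replicate 2 (0.0602) or replicate 3 (0.0513). EPHX2, the soluble epoxide hydrolase that inactivates the epoxides made by such P450s, measured 637, 687, 830 and 768 against 577, 661, 664 and 587. Its log2 difference was -0.23 (95% interval -0.49 to 0.03, adjusted p = 0.233). EPHX1, the microsomal hydrolase of foreign epoxides, measured 822 to 1055 and 887 to 1205 (0.10, adjusted p = 0.709).

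CYP2D25, known in the pig as a vitamin D 25-hydroxylase of liver microsomes, overlapped between ages, with 1250, 1342, 1183 and 1289 at 3 days and 1210, 1226, 1197 and 1332 at 7 days. Its log2 difference was -0.03 (95% interval -0.22 to 0.16). A second CYP2D25 probe set, at or above the 20th percentile on 3 arrays, gave 1.34 with an adjusted p of 0.3, and the mean of both turned the sign to 0.66.

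The CYP2C and CYP3A families clear many drugs in the liver. CYP2C91 measured 763, 438, 420 and 536 against 548, 592, 558 and 516 (0.08, 95% interval -0.36 to 0.52). CYP2C42 measured 268, 154, 325 and 289 against 116, 137, 217 and 205 (-0.61, adjusted p = 0.229). CYP3A46 gave 260, 202, 144 and 98.5 against 78.9, 86.5, 102 and 121 (-0.79, adjusted p = 0.142), and it passed only without the 3-day-old replicate 4 (0.0481). For CYP3A29 the log2 difference was -0.49 (adjusted p = 0.158). The genes of these families resemble each other closely, as do those of the UGT2B and CYP19 families. How far a probe set also binds a relative was not tested, so which copy a value stands for is uncertain.

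CYP2E1, which oxidises ethanol and small solvents in liver, had the highest log2 difference among members that did not pass (1.47, adjusted p = 0.402). Its values were 1.28, 16.6, 49.1 and 17.4 at 3 days and 35.6, 36.6, 42.5 and 18.9 at 7 days, at or above the 20th percentile on 4 arrays, and the lowest of them sets the difference. Low signal was common among the P450s. Of the 28 P450 genes, 13 were at or above the 20th percentile on all 8 arrays and 10 on at most 2, against 33 and 3 of the 42 other members.

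P450s of sterols, bile acids, vitamin D and retinoic acid gave no call in 7 tested members. The shares over all tested genes were 5.03% higher and 7.16% lower. The median log2 difference of these P450s was -0.64, with 6 of 7 negative, against a median of -0.02 over all genes. Only 3 of the 7 were at or above the 20th percentile on all 8 arrays, and 3 reached it on at most 2. The 3 on all arrays, CYP39A1, CYP27A1 and CYP51, gave -0.47, -0.40 and 0.22, so the median rests partly on signal near background. CYP39A1, which hydroxylates 24-hydroxycholesterol on a bile acid route, came nearest. It measured 571, 627, 503 and 596 at 3 days and 461, 386, 355 and 462 at 7 days, without overlap (-0.47, SE 0.12, adjusted p = 0.0519). It passed under 5 of the 10 alternative settings that kept all arrays and in none of the 8 that left out an array.

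CYP27A1, the mitochondrial sterol 27-hydroxylase, measured 1233, 1404, 1381 and 1477 at 3 days. At 7 days it measured 765, 834, 1313 and 1375, with 2 pigs near the 3-day-old level and 2 well below it (-0.40, adjusted p = 0.26). CYP27B1, CYP24A1 and CYP8B1, which activate vitamin D, inactivate it and shape bile acids, reached the 20th percentile on 5, 2 and 1 arrays.

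CYP51, the lanosterol demethylase of cholesterol synthesis, measured 2317, 2276, 1613 and 2061 at 3 days and 3403, 2543, 1722 and 2146 at 7 days (0.22, 95% interval -0.30 to 0.74, adjusted p = 0.58). The pigs of one age differed more from each other than the ages did. The 11 tested cholesterol synthesis genes outside the members summed to 12950, 12777, 10722 and 12162 at 3 days and to 15153, 13993, 13171 and 10454 at 7 days. Both CYP51 and this sum were highest on the 7-day-old replicate 1, while the lowest array differed between them. In that list TM7SF2, a sterol reductase, was lower (-0.41, adjusted p = 0.0404) and none was higher.

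Conjugating enzymes attach glucuronic acid or sulfate to steroids and drugs and so make them soluble. UGT2B31, the only glucuronosyltransferase among the members, measured 111, 90.6, 85.8 and 57.7 at 3 days and 40.8, 49.4, 53.4 and 44.9 at 7 days. The groups were apart by a narrow margin, at low intensities. The mean was 86.2 ± 21.9 against 47.1 ± 5.46 (SD, n = 4 each), or 1.79-fold lower (-0.84, SE 0.20, adjusted p = 0.0394). Its second probe set overlapped between ages (-0.78, adjusted p = 0.34). The call was lost when any array other than the 3-day-old replicate 4 was left out (adjusted p up to 0.0982), with the mean of both probe sets (0.122) and by the methods' own test (0.0634).

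SULT1A3, a sulfotransferase of dopamine and other catechols, measured 314, 194, 242 and 303 at 3 days and 161, 141, 198 and 144 at 7 days. The ages overlapped by 1 value each (-0.70, SE 0.19, adjusted p = 0.0554). It passed under 5 of the 10 settings that kept all arrays and without the 3-day-old replicate 2 (0.0428). SULT2A1, the sulfotransferase of DHEA and bile acids, reached the 20th percentile on 2 arrays. PAPSS2, which makes the sulfate donor for these enzymes, was higher at 7 days (0.67, adjusted p = 0.0387), a call lost in 7 of the 8 fits that left out an array (adjusted p up to 0.0961) and kept without the 3-day-old replicate 4 (0.0189).

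Enzymes of alcohols, esters and carbonyl compounds gave no call. ADH5, which removes formaldehyde bound to glutathione, had the smallest spread within an age of any member, an SD of 0.06 on the log2 scale. It measured 5089, 5112, 5303 and 5402 at 3 days and 4644, 4955, 4616 and 4404 at 7 days, without overlap (-0.17, adjusted p = 0.199). AKR1A1, the aldehyde reductase of most tissues, measured 1680 to 1699 and 1656 to 1990 (0.12, adjusted p = 0.408). AKR7A2, which reduces succinic semialdehyde, measured 554 to 797 and 586 to 773 (0.12, adjusted p = 0.667).

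For 19 of the 60 members not called, the 95% interval of the difference on the followed probe set lay within 1.5-fold in both directions. Other probe sets of these genes can reach past it, as for HSD17B2 and CYP2D25. They include FDX1, POR, HSD17B4, HSD17B12, CYP2D25, ALDH9A1, AKR1A1, ADH5, EPHX1 and EPHX2. For the other 41 the interval reached past 1.5-fold in at least one direction.

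Some members varied strongly among pigs of the same age. CYP1A1, which is induced through the aryl hydrocarbon receptor by aromatic pollutants, measured 188, 932, 248 and 335 at 3 days and 330, 378, 540 and 234 at 7 days. Its difference between ages was 0.03 (95% interval -1.14 to 1.20), while its SD within an age was 0.80 on the log2 scale. That SD was larger than those of 99.7% of the 4907 genes that were at or above the 50th percentile on at least 4 arrays. AHR, the receptor itself, measured 282, 227, 294 and 176 against 199, 200, 425 and 246 (0.08, adjusted p = 0.882). The pig with the highest CYP1A1 was not the pig with the highest AHR.

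**Figure D4:**
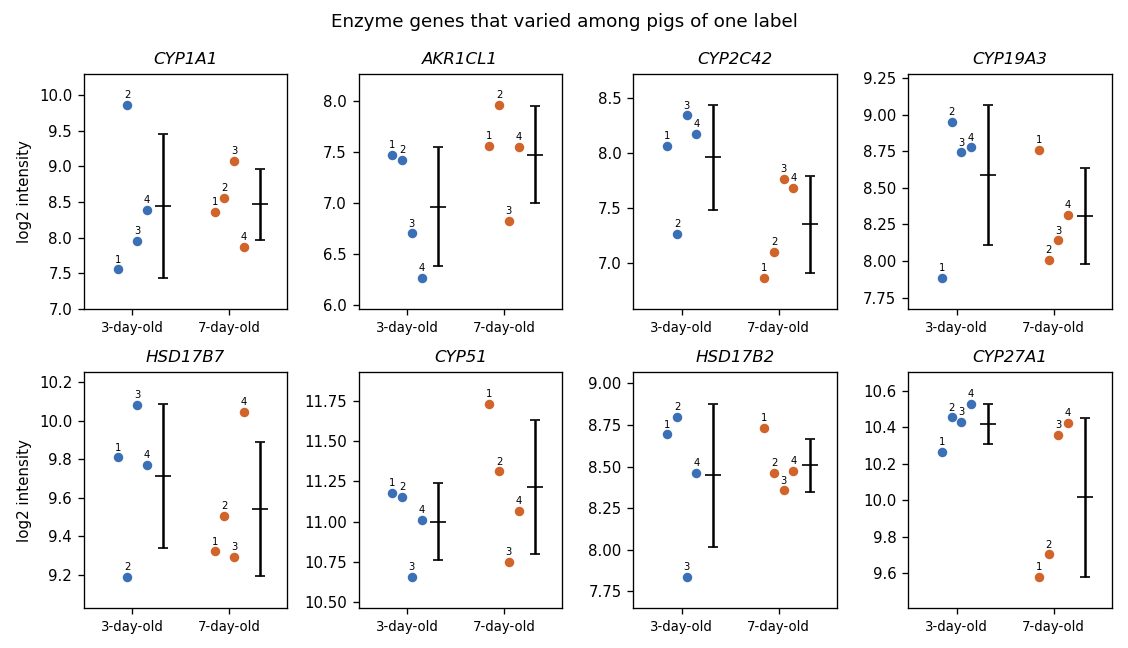
Log2 intensity on each array of the 8 enzyme genes with the largest SD within an age among members that did not pass and were at or above the 50th percentile on at least 4 arrays, with the 4 pigs of each age as numbered points, a black bar for the mean and SD of the log2 values, and a vertical scale of its own in each panel. CYP1A1 spreads from intensities of 188 to 932 within the 3-day-old group, and in each of the 8 panels the ages overlap.

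AKR1CL1, an aldo-keto reductase of the family that handles steroids, followed with an SD of 0.53. It measured 178, 172, 104 and 76.9 against 189, 249, 113 and 188 on its brightest probe set (0.51, adjusted p = 0.381), while its other 2 tested probe sets gave -0.07 (adjusted p = 0.908) and 0.89 (adjusted p = 0.163). The mean of the 3 probe sets passed, with an adjusted p of 0.0375. HSD17B2, which inactivates estradiol and testosterone, measured 414, 445, 229 and 352 against 425, 353, 328 and 356 (0.06, adjusted p = 0.889). Its second, dimmer probe set gave 0.45 (95% interval 0.01 to 0.90, adjusted p = 0.17). CYP2C42, CYP19A3, HSD17B7, CYP51 and CYP27A1 complete the 8 most variable genes, with SDs of 0.32 to 0.46. Over the 36 members among those brighter genes the median SD was 0.16, and over all 4907 it was 0.15.

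The partners of these enzymes were read from lists of genes outside the members. Their counts stand beside shares of 5.03% higher and 7.16% lower over all tested genes, and differences from those shares were not tested. Of 17 tested receptors and receptor partners for steroids, retinoids and foreign compounds, most of them nuclear receptors, none passed in either direction, with 2 at an unadjusted p under 0.05 and a median log2 difference of -0.09. Of 11 electron donors and steroid carriers 2 were lower and none was higher (median -0.19). They were NPC1, which lets cholesterol out of lysosomes (-0.47, adjusted p = 0.0235), and TSPO, a cholesterol-binding protein of the outer mitochondrial membrane (-0.54, adjusted p = 0.0341).

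Of 19 enzymes of glutathione and other conjugation, 2 were higher and 1 was lower (median -0.06). GCLC, the catalytic subunit that limits glutathione synthesis, was higher (0.59, adjusted p = 0.0329), though not with the mean of its probe sets (adjusted p = 0.411), and PON2, an intracellular lactonase, was lower (-0.57, adjusted p = 0.0345). Of 12 ABC and organic anion transporters 1 was lower and none was higher (median -0.07). This was SLCO2B1, an uptake carrier of steroid sulfates and drugs, with 261, 208, 165 and 184 at 3 days and 81.7, 87.4, 103 and 75.4 at 7 days (-1.22, SE 0.17, adjusted p = 0.00762). SLCO2B1 passed with any single array left out (adjusted p up to 0.0271). RBP2 of the retinoid list did so too (up to 0.0221). NPC1, TSPO, GCLC, PON2, RARRES1 and TM7SF2 did not. NPC1 missed the threshold without the 3-day-old replicate 1 or 3 or the 7-day-old replicate 1, 3 or 4 (adjusted p up to 0.063). TSPO, GCLC and PON2 each passed only in the fit without the 3-day-old replicate 3 (0.0385), the 7-day-old replicate 3 (0.0323) and the 7-day-old replicate 1 (0.0201) respectively, with values of up to 0.0802, 0.0838 and 0.0915 in the others. RARRES1 missed it without the 3-day-old replicate 2 or the 7-day-old replicate 1 or 2 (up to 0.0578), and TM7SF2 missed it without any one array (0.0547 to 0.0989).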

How the data were processed

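Islet RNA from 8 pigs was measured on Affymetrix porcine arrays, 1 per pig. The deposited table holds intensities on a linear scale, which the authors made from the scans. No source used here names the software behind this step. The methods describe a later median scaling per probe set, which these values do not carry. RNA was amplified, with an added round for samples of low yield that are not named. Of 24123 probe sets, 124 controls were left out. Of the rest 10069 had 1 gene symbol, 198 several and 13732 none. Symbols come from the platform annotation.

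Intensities were floored at 1 (1528 values) before taking log2. Probe sets under the 20th percentile (26.4 to 31.3) on every array were dropped, which left 21574. The ages were compared with limma 3.58.1 (lmFit and eBayes, R 4.3.3, two-sided) with Benjamini-Hochberg adjustment over all 21574, and 2305 passed at 0.05. Figures were drawn with matplotlib 3.10.9. The fit was tested on simulated data. The methods' own test is the unpaired comparison with the same adjustment. Fold values compare geometric means. P-values judge the difference between ages against the spread between single pigs of one age, with variances moderated across probe sets in limma. That spread also holds differences in islet isolation, culture and RNA amplification.

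Members, lists and tests were chosen with earlier results of these data known. Named by rule were all called members, the 2 members of each role with the highest mean log2, the largest rise and fall among members not called, HSD11B1, CYP2J34 and up to 3 called genes per list. HSD11B2, HSD17B10, CYP39A1, CYP1A1, CYP2C42, CYP19A3, AKR1CL1, HSD17B2, CYP11A1, STAR, CYP17A1, HSD3B1, CYP3A46, CYP3A29, ALDH1L1, ALDH4A1, NR3C1, AHR and others outside the rule were chosen after their values were seen. Alternatives were no filter, a stricter filter (50th percentile on 4 arrays), the methods' test, a variance trend, median centring, quantile normalization, array weights, a replicate block, an offset of 16, the mean of a gene's probe sets, and leaving out each array. Sequences and coordinates were not used here.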

Additional observations from a re-analysis of the deposited data

Results flagged for a closer look

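In 134 sets of 4 arrays (67 tested members at 2 ages), 6 held an array that stood apart from the other three, where chance gives about 5% of sets. For ALDH1A1 the 7-day-old replicate 3 measured 1362 against 1662, 1679 and 1699, so the lowest value of the lower group was apart while the other three agreed closely. For AKR1A1 the 3-day-old replicate 3 measured 1699 against 1680, 1683 and 1683, a small gap in a tight group. For CES3, a carboxylesterase, the 7-day-old replicate 1 measured 12.6 against 66.4, 83.7 and 90.4. For FMO1, a flavin monooxygenase, the 7-day-old replicate 4 measured 12.8 against 38.1, 40.4 and 41.2. For CYP27B1 the 3-day-old replicate 2 measured 23.4 against 47.8, 53.6 and 53.9. For CYP2C36 the 3-day-old replicate 1 measured 15.2 against 25.1, 26.8 and 27.7. The last 4 values lie below the 20th percentile of their arrays. The 6 values come from 6 different arrays.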

How the results depend on the processing

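Across the settings run, the 7 called members kept their sign. With a replicate block, 0 members were higher and 0 lower, and 0 of 21574 probe sets passed in limma, with 5264 at an unadjusted p under 0.05 (13 members). Replicate numbers do not pair these pigs, as residual correlations of arrays with one number were -0.013 to 0.0049. Leaving out 1 array gave 0 to 2 members higher and 3 to 5 lower, and 1008 to 1854 probe sets passed against 2305. The genes of the partner lists, 4 higher and 6 lower, became 1 to 3 and 2 to 3 without 1 array, 0 and 0 with the block, 7 and 10 with the variance trend, and 2 higher with the methods' test. The trend called 3491 probe sets. Signs turned for 9 named genes, none of them called: without 1 array the log2 difference ranged from -0.028 to 0.26 for CYP2C91, -0.022 to 0.086 for FDX1, -0.013 to 0.055 for HSD17B12, -0.17 to 0.20 for AHR, -0.27 to 0.50 for CYP1A1, -0.14 to 0.18 for HSD17B2, -0.53 to 0.21 for HSD3B1 and -0.43 to 0.44 for STAR. With the mean of probe sets it was 0.66 for CYP2D25 and -0.032 for FDX1, and with array weights -0.052 for AHR and -0.027 for CYP1A1. The cause was not tested. Signal near background limits the genes at low intensity.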
